A study of Mus musculus with 34 samples.

Results

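Fetal livers that had lost the whole pocket protein family were compared with livers in which the family was intact. The arrays were chosen by their titles alone: 6 arrays titled Rb1;p107;p130 TKO (triple knockout) and 2 titled wild type, 8 of the 34 arrays in the series. Genes p107 and p130 carry the symbols Rbl1 and Rbl2. Each array measured total RNA of untreated, freshly isolated and unsorted liver, labelled embryonic day 14.5, while the series design gives days 13.5 to 14.5. The 2 Rb1 KO and 6 p107;p130 DKO (double knockout) arrays were used to divide the comparison into steps, and the other genotypes are shown beside it where a gene's level in all of them helps. The strain, the alleles and any Cre line are not given in the sources used here. Nothing in the labels says that the arrays came from separate animals, so every p-value measures only the spread between these samples, which may be technical.

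Pocket proteins hold E2F transcription factors in check and so restrain entry into S phase. RB1 binds mainly the activating E2Fs, whereas p107 and p130 join E2F4 and the DREAM complex, which represses cell cycle genes in resting cells. Fetal liver is the main blood-forming organ at this stage, and most of its cells are red cell precursors that divide a few more times, leave the cell cycle, condense their nucleus and expel it. Mouse fetuses without Rb1 are known for anaemia and incomplete red cell maturation.

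Values are MAS5 signals, a linear measure of probe set brightness in arbitrary units. Each of 18193 genes was read from its brightest probe set, and the 12723 genes that reached a signal of 100 on 2 or more of the 34 arrays were tested. Differences are on the scale log2(signal + 32), TKO minus wild type unless another pair is named, and folds derived from them understate the change of dim genes. A gene is called at a limma adjusted p under 0.05. The median standard error of a difference was 0.24, which makes the 95% interval of a typical gene about 0.49 wide to either side, and the number of arrays, with only 2 of wild type, limits the precision.

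Red cell and hepatocyte markers had the levels of a fetal liver in both groups. Slc4a1, the anion exchanger of the red cell membrane, ran from 29176 to 44665 in TKO livers, against 26465 and 40809 in wild type livers. The hepatocyte markers Alb, Afp, Apoa1 and Ttr summed to between 114788 and 150016 in TKO livers, against 101494 and 164419 in wild type livers. Hba-a1, an adult alpha globin, was the exception, since its probe set read 9.35 to 82.0 in TKO livers and 31.7 and 46.0 in wild type livers and stayed below the test's minimum. Markers of neural tissue and gut, Cd79a of B cells and Ptf1a of pancreas also lay below it. The other pancreas marker, Cpa1, was tested, and gave 10.9 to 182 in TKO livers, against 9.75 and 11.9 in wild type livers (log2 difference 0.67, SE 0.52). The muscle markers Myh3 and Actc1 summed to between 55.9 and 1083 in TKO livers, against 236 and 326 in wild type livers, and the part of carried-over tissue in any result was not tested. None of the markers of 13 tissues or cell types was called. In bulk tissue, fewer cells of a type and less RNA per cell cannot be told apart.

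The targeted genes were checked first. Rb1 signal in TKO livers had a lowest, median and highest value of 766, 1184 and 1467, against 5785 and 9085 in wild type livers. The ranges were far apart, and Rb1 fell by 2.67 ± 0.24 (log2, SE; limma adjusted p = 1.17e-08), although a clear signal remained. Rbl1 gave 56.9, 81.0 and 139 in TKO livers, against 1219 and 1595 in wild type livers, and fell by 3.61 ± 0.28 (adjusted p = 2.30e-10). A second Rbl1 probe set averaged 33.0 ± 20.5 in TKO livers (SD, n = 6) and 240.1 ± 24.9 in wild type livers (SD, n = 2). Rbl2 was dim. It gave 127, 184 and 265 in TKO livers, against 350 and 340 in wild type livers, without overlap, but its difference of -0.81 ± 0.26 was not called (limma adjusted p = 0.582). Its second probe set averaged 81.0 ± 27.9 in TKO livers and 179.8 ± 4.9 in wild type livers. Which exons were deleted, and whether these probe sets lie inside them, is not given in the sources used here.

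The 250 bases before the start of Rbl1 are shown because Rbl1 is both a family member and a gene with an E2F motif there. The sequence is from RefSeq on build GRCm38.p6, chr2:157204535-157204784, minus strand, written 5′ to 3′, with the motif TTTCGCGC in capitals, 18 to 11 bases before the start.
Rbl1: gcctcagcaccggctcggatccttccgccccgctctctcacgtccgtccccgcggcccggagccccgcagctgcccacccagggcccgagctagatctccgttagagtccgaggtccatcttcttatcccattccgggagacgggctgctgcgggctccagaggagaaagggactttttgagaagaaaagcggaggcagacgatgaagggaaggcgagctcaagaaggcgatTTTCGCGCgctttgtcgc
The gene is deleted in TKO livers. In Rb1;p130 DKO livers, which carry it, its level was 2078 ± 577 (SD, n = 9), against 1407 ± 266 (SD, n = 2) in wild type livers, a difference that was not tested. Rb1 KO and p130 KO livers carry it too, and their levels are not given here.

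Few other genes moved beyond the spread between arrays. limma called 10 of 12723 genes, or 0.0786%, with 5 higher in TKO livers (0.0393%) and 5 lower (0.0393%), and 2 of those that fell were the deleted Rb1 and Rbl1. At an unadjusted p under 0.05 there were 581 genes, 4.57% of those tested. Every TKO array lay above both wild type arrays for 471 genes (3.70%) and below both for 284 genes (2.23%). The difference was above 0 for 6874 genes (54.0%), and its median over all genes was 0.02. By size alone, 53 genes were at least 2-fold higher and 47 at least 2-fold lower, and of these 26 and 23 were free of overlap between TKO and wild type.

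**Figure D1:**
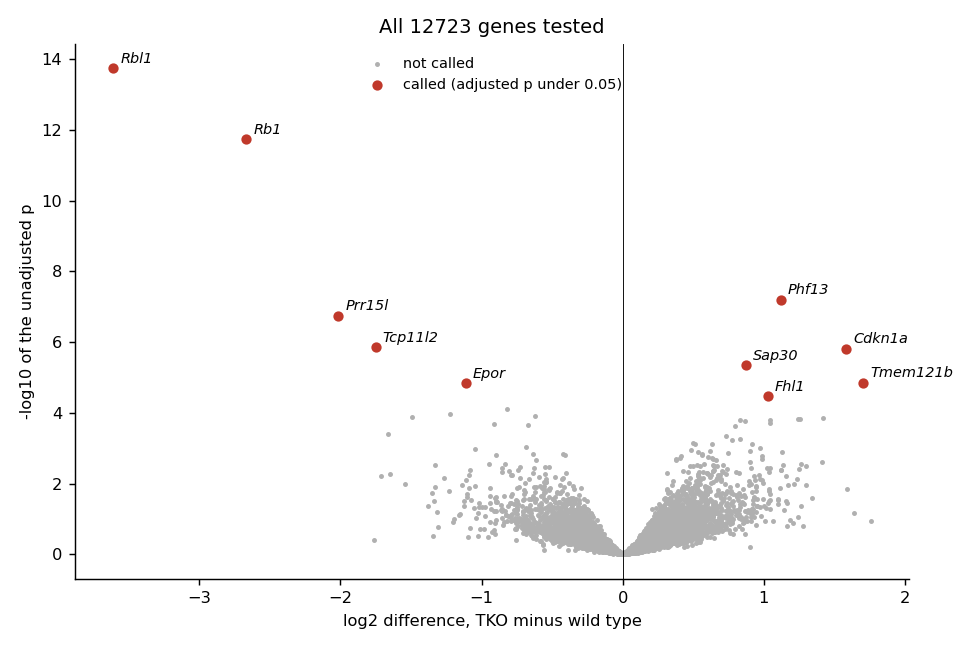
Log2 difference, TKO minus wild type (x axis), against the -log10 of the unadjusted limma p (y axis) for each of the 12723 genes tested. The 10 called genes are red and named. Rbl1 and Rb1 stand apart at the upper left. The other 8 called genes lie in height between them and the uncalled ones, with Phf13 highest and Fhl1 lowest.

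Among genes that rose, Cdkn1a encodes p21, an inhibitor of cyclin-dependent kinases and the best known p53 target. Its signal was 322, 588 and 973 (lowest, median, highest) in TKO livers, against 186 and 159 in wild type livers. Even the dimmest TKO array was above both wild type arrays, and Cdkn1a rose by 1.58 ± 0.27 (adjusted p = 0.00328). Lack of overlap was part of the rule that named the brighter called genes, here and below, so it is no separate support. A second Cdkn1a probe set averaged 156 in TKO livers and 56.1 in wild type livers. Phf13, a PHD finger protein that binds methylated histone H3, gave 728, 813 and 1004 in TKO livers, against 384 and 350 in wild type livers. Both groups were tight and well separated, and Phf13 rose 2.17-fold (1.12 ± 0.16, adjusted p = 0.000265). Sap30, a subunit of the Sin3 histone deacetylase complex, gave 2107, 2517 and 2748 in TKO livers, against 1444 and 1222 in wild type livers. Again no array overlapped, and Sap30 rose 1.83-fold (0.87 ± 0.16, adjusted p = 0.0082).

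Fhl1, a LIM domain protein abundant in muscle, gave 1007, 1130 and 1921 in TKO livers, against 531 and 688 in wild type livers. It rose 2.04-fold (1.03 ± 0.21, adjusted p = 0.0423), the weakest of the 10 calls by its p-value. The TKO arrays brightest for Fhl1 were arrays 2 and 4. The muscle markers were not called, and their part in the Fhl1 value was not tested. Tmem121b, a membrane protein gene, also rose (1.70 ± 0.33, adjusted p = 0.0206), but it was too dim for the rule that named the others. It gave 89.2, 106.6 and 168 in TKO livers, against 15.7 and 10.4 in wild type livers. In p107;p130 DKO livers it averaged 72.7 ± 19.3 (SD, n = 6) and the single p107 KO array read 152, so both wild type arrays were low beside genotypes with Rb1.

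**Figure D2:**
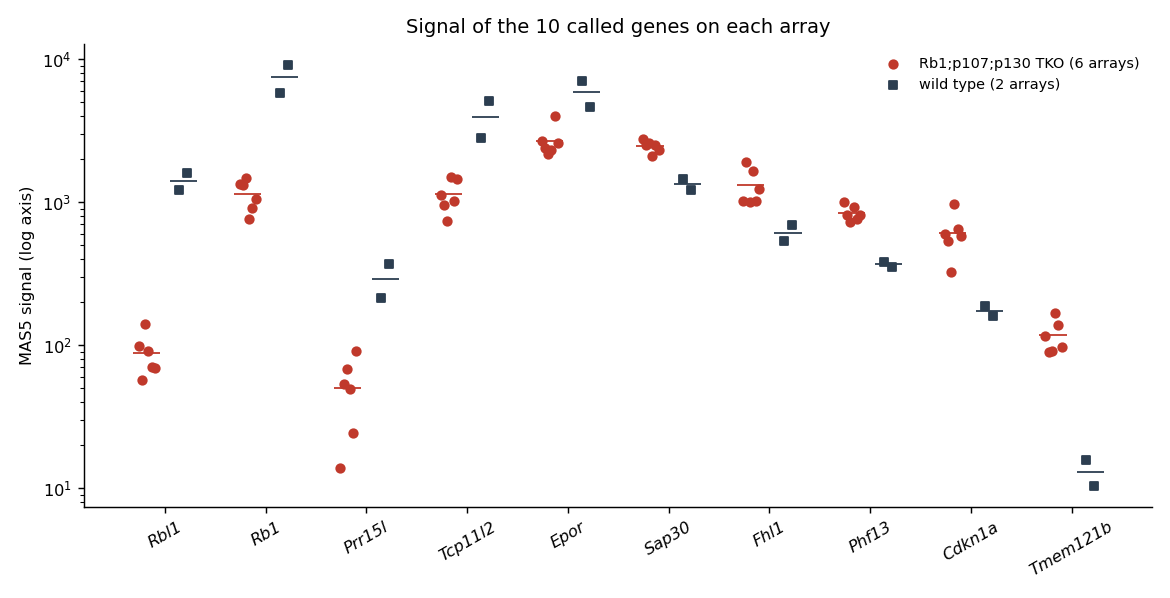
MAS5 signal (log axis) of the 10 called genes on each of the 6 TKO arrays (red circles, left of each pair) and the 2 wild type arrays (dark squares), with lines at the group means. For each of the 10 genes all TKO values lie on the same side of both wild type values, and Prr15l and Tmem121b are dim in 1 of the 2 groups.

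Epor, the erythropoietin receptor on which red cell precursors depend for survival, was among the genes that fell. Its signal was 2174, 2484 and 3999.6 in TKO livers, against 7033 and 4656 in wild type livers. Array 5 supplied the highest value, and the other TKO arrays ended at 2673, so the groups came close without overlap. Epor fell by 1.11 ± 0.22 (adjusted p = 0.0206), and was 2.16-fold lower in TKO livers. Tcp11l2 gave 737, 1076 and 1507 in TKO livers, against 2825 and 5060 in wild type livers. It was 3.36-fold lower (-1.75 ± 0.30, adjusted p = 0.00328), with wild type arrays that differed widely from each other. Prr15l fell by 2.01 ± 0.31 (adjusted p = 0.00056). It was dim and lay outside the naming rule, with 13.9, 51.1 and 91.6 in TKO livers, against 213 and 369 in wild type livers. The single p107 KO array gave 73.7 for Prr15l, within the TKO range.

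The promoter window of Epor is shown because it was the one window among the called genes with a GATA motif, the binding letters of the red cell factor GATA1. It is RefSeq sequence on build GRCm38.p6, chr9:21963577-21963826, minus strand, 5′ to 3′, ending at the base before the start. The capitals mark AGATAA read on the opposite strand, 54 to 49 bases before the start.
Epor: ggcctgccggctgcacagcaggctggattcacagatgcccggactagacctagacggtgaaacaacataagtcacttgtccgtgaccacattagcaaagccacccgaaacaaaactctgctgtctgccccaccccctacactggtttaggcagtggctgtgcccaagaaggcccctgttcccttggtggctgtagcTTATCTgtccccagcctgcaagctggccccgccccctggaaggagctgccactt
Motifs were searched on both strands in the 250 bases before each start: TTTCCCGC, TTTGGCGC, TTTGCCGC and TTTCGCGC for E2F, TTTGAA and TTCGAA for the cell cycle homology region bound by DREAM, and AGATAA and TGATAA for GATA factors. The E2F and GATA letters do not overlap each other. Of 8 called genes with a window, 1 held an E2F motif (Rbl1), 1 a GATA motif (Epor) and 0 a cell cycle homology motif. Over the 10283 tested genes with a window these shares were 3.90, 11.8 and 14.7%, and over all 27025 genes with a window they were 2.16, 18.8 and 19.6%. Gata1 itself had nearly the same level in both groups, with 5541, 6669 and 8370 in TKO livers, against 6322 and 7432 in wild type livers (0.00 ± 0.17, adjusted p = 1).

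Genes next in line by test statistic, among those without overlap and with a mean log2 of at least 8, were not called. They are given as values. Otud1, a deubiquitinase, had 368, 530.5 and 571 in TKO livers, against 209 and 169 in wild type livers (1.26 ± 0.29, adjusted p = 0.103). Fos, a subunit of the AP-1 factor, had 299, 489 and 563 in TKO livers, against 146 and 188 in wild type livers (1.24 ± 0.29, adjusted p = 0.103). Zfp367, a zinc finger gene with E2F motifs in 2 annotated promoter windows, had 3147, 4454 and 5811 in TKO livers, against 1800 and 2481 in wild type livers (1.04 ± 0.25, adjusted p = 0.117). Lack of overlap was a condition for naming the genes of this paragraph, so it is not a result about them. Pdzk1ip1 (1.04 ± 0.24), the Polycomb subunit gene Pcgf5 (0.83 ± 0.19) and Tnc (0.87 ± 0.20), which encodes the matrix protein tenascin C, had adjusted p-values of 0.103, 0.103 and 0.110. A second Pcgf5 probe set gave a smaller difference, 0.25, with means of 866 in TKO livers and 707 in wild type livers.

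On the lower side, Xpo7, an exportin that mouse red cell precursors need to condense their nucleus, had 9195, 9964 and 13688 in TKO livers, against 15988 and 25194 in wild type livers (-0.91 ± 0.22, adjusted p = 0.12). Its next probe sets gave -1.26 and -1.67. Ube2o, a ubiquitin enzyme that clears ribosomes from maturing red cells, had 1461, 1820 and 2567 in TKO livers, against 3561 and 5429 in wild type livers (-1.22 ± 0.28, adjusted p = 0.103). Both genes were again picked partly for lack of overlap, and in both the wild type array 2 was the higher one. Plin2, a coat protein of lipid droplets, stood at -0.62 ± 0.14 (adjusted p = 0.103), the endocytic scaffold Itsn1 at -0.67 ± 0.16 (adjusted p = 0.12) and the prokineticin receptor Prokr1 at -0.82 ± 0.18 (adjusted p = 0.0871). Prex1, an activator of Rac, and Pld3, of the phospholipase D family, stood at -0.68 ± 0.19 and -1.04 ± 0.29 with adjusted p-values of 0.343 and 0.378.

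Rb1 KO and p107;p130 DKO livers were set against the same 2 wild type arrays, so that these comparisons share arrays with the main one and their values are only placed side by side. Each had 1 called gene of 12723 (0.00786%): Rb1 in Rb1 KO minus wild type, and Rbl1 in p107;p130 DKO minus wild type. Cdkn1a stood at 1.58 in TKO livers, at 1.28 ± 0.33 in Rb1 KO livers (adjusted p = 0.704) and at 0.31 ± 0.27 in p107;p130 DKO livers (adjusted p = 1), all minus wild type. For Phf13 the 3 differences were 1.12, 0.98 ± 0.20 and 0.04 ± 0.16, and for Tcp11l2 they were -1.75, -1.59 ± 0.36 and -0.41 ± 0.30. In these 3 genes the Rb1 KO value lay nearer to the TKO value than to the p107;p130 DKO value. Epor had the same order with another spacing, at -1.11 in TKO livers, -0.42 ± 0.27 in Rb1 KO livers and -0.20 ± 0.22 in p107;p130 DKO livers. Fhl1 (1.03, 0.69 ± 0.26 and 0.16 ± 0.21) and Sap30 (0.87, 0.51 ± 0.19 and 0.27 ± 0.16) followed the same order. Tmem121b stood at 1.70, 1.69 ± 0.41 and 1.20 ± 0.33, high against wild type in all 3 genotypes.

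**Figure D3:**
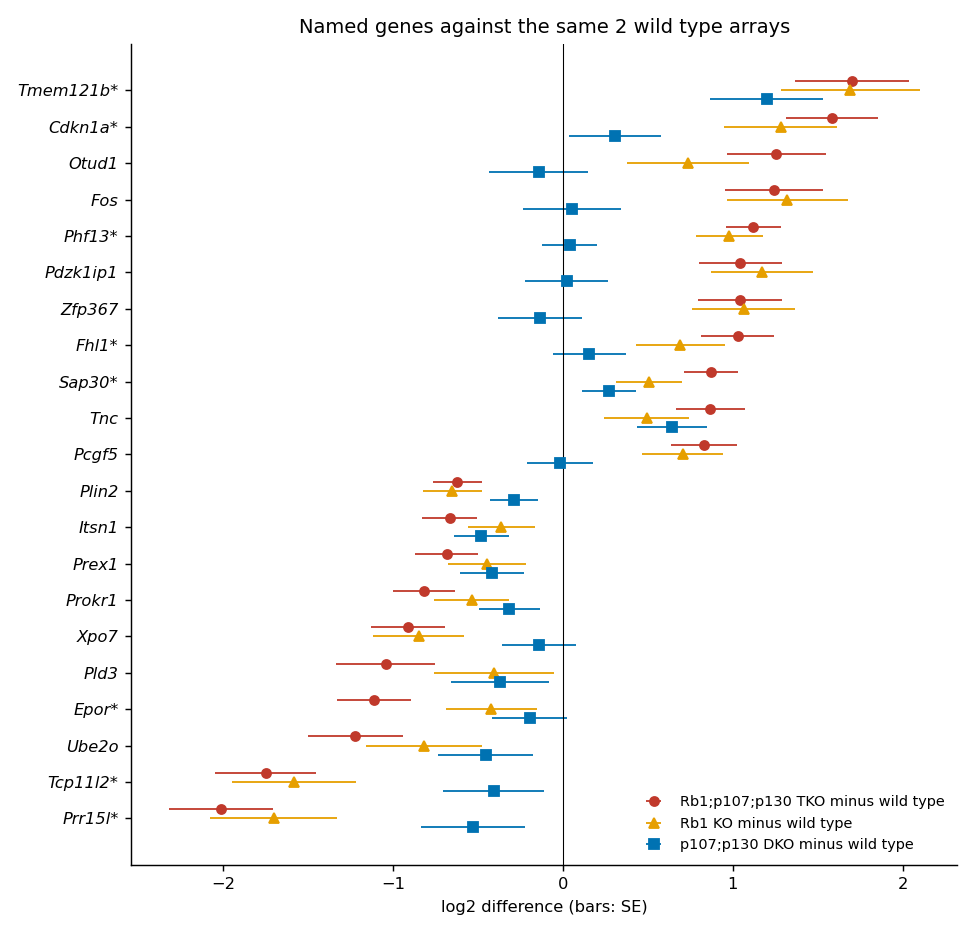
Log2 difference from the same 2 wild type arrays (x axis, bars are SE) of TKO (red circles), Rb1 KO (orange triangles) and p107;p130 DKO (blue squares) livers for the named genes (rows, asterisk: called in TKO minus wild type). The orange points lie near the red ones for Cdkn1a, Fos, Phf13, Zfp367 and Tcp11l2, and the blue points of these genes lie nearer 0.

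The steps that end at TKO were tested directly. TKO minus p107;p130 DKO, which adds Rb1 loss to the loss of the other two, called 48 genes (0.377%), 38 higher and 10 lower. That count was 28 without p107;p130 DKO array 2, 31 without p107;p130 DKO array 3 and 30 without TKO array 2. In this step Cdkn1a rose by 1.28 ± 0.19 (adjusted p = 0.000254), Phf13 by 1.08 ± 0.11 (adjusted p = 4.02e-07), Fhl1 by 0.87 ± 0.15 (adjusted p = 0.00146) and Sap30 by 0.60 ± 0.11 (adjusted p = 0.00439). Epor fell by 0.92 ± 0.15 (adjusted p = 0.00112), Tcp11l2 by 1.34 ± 0.21 (adjusted p = 0.000367), Xpo7 by 0.77 ± 0.15 (adjusted p = 0.0106) and Prr15l by 1.48 ± 0.22 (adjusted p = 0.000251). Otud1, Fos, Zfp367, Pdzk1ip1 and Pcgf5, uncalled against wild type, rose here by 1.4, 1.19, 1.17, 1.02 and 0.85 (adjusted p = 0.000254, 0.00141, 0.000254, 0.00112 and 0.000603). Plin2 and Ube2o were not called in this step either, at -0.33 ± 0.10 (adjusted p = 0.221) and -0.77 ± 0.20 (adjusted p = 0.0777). All genes named in this step were first picked by their TKO values against wild type, and the same 6 TKO arrays enter here. The p-values of this step are therefore not separate support for them. The p107;p130 DKO group has 6 arrays to the 2 of wild type, and the median standard error of this step was 0.17. Sex was uneven in this step, since Xist was above 500 on 4 of 6 TKO arrays and 1 of 6 p107;p130 DKO arrays.

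TKO minus Rb1 KO, which adds the loss of p107 and p130, called 1 gene (0.00786%), Rbl1. Cdkn1a differed by 0.30 with a 95% interval of -0.25 to 0.85, Phf13 by 0.14 (-0.19 to 0.47) and Tcp11l2 by -0.17 (-0.77 to 0.44). Epor differed by -0.69 (-1.14 to -0.24), with an adjusted p of 0.889, and Sap30 by 0.36 (0.04 to 0.69), also with an adjusted p of 0.889. These intervals leave room for sizeable differences in either direction for Cdkn1a and Tcp11l2, so similar values do not show that Rb1 KO and TKO livers were alike.

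The levels over all 8 genotypes showed the same genes beside livers that were not part of the comparison. Cdkn1a averaged 609 ± 212 in TKO (SD, n = 6), 610 ± 77.8 in Rb1;p107 DKO (n = 5), 485 ± 117 in Rb1;p130 DKO (n = 9), 477 ± 161 in Rb1 KO (n = 2) and 226 ± 52.6 in p107;p130 DKO livers (n = 6). It read 296 on the p107 KO array, and averaged 224 ± 55.7 in p130 KO (n = 3) and 173 ± 19.0 in wild type livers (n = 2). The genotypes without Rb1 overlapped with each other, but every array of the 4 genotypes without Rb1 was above every array of the 4 genotypes with it. Epor was arranged otherwise, with 2687 ± 669 in TKO, 2558 ± 359 in Rb1;p107 DKO, 3569 ± 741 in Rb1;p130 DKO and 4278 ± 520 in Rb1 KO livers. Its levels were 5044 ± 783 in p107;p130 DKO livers, 4033 on the p107 KO array, 6609 ± 1375 in p130 KO and 5845 ± 1680 in wild type livers. For Epor, TKO, Rb1;p130 DKO and Rb1 KO arrays overlapped with arrays of genotypes that carry Rb1, and in TKO it was array 5 that lay above the lowest p107;p130 DKO array, at 3855.

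**Figure D4:**
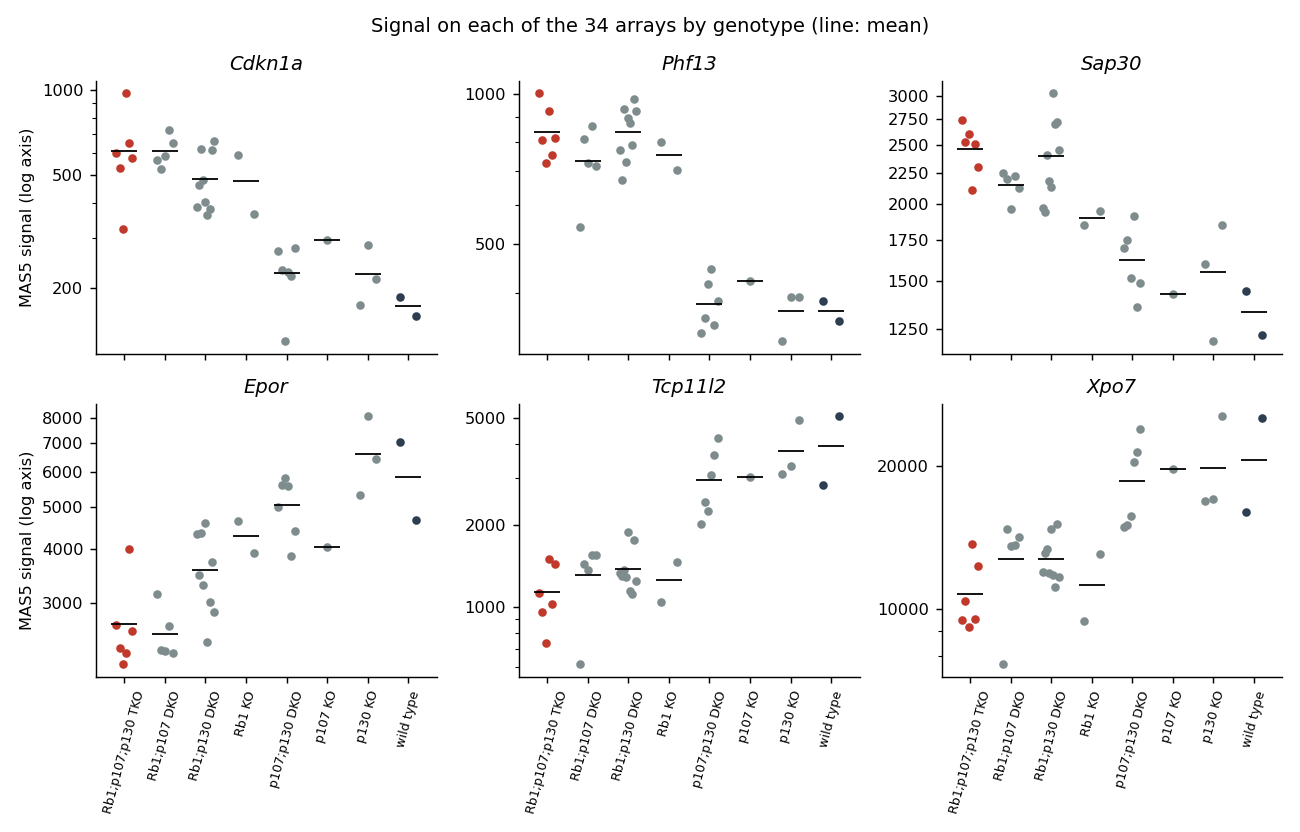
MAS5 signal (log axes) of 6 genes on each of the 34 arrays, by genotype, TKO leftmost in red and wild type rightmost in dark blue, with lines at the means. Cdkn1a, Phf13 and Tcp11l2 separate the 4 genotypes on the left, which lack Rb1, from the others, while Epor, Sap30 and Xpo7 grade between them.

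Genes of the cell cycle that E2F and DREAM control stayed below the threshold. For this and later lists, the shares over all genes tested were 54.0% above 0 and 4.57% at an unadjusted limma p under 0.05. Of 37 S phase and E2F target genes 0 were called, 4 had an unadjusted p under 0.05 by limma, and 26 lay above 0, with a median of 0.09 beside 0.02 over all genes. Uhrf1, which keeps DNA methylated through replication, gave 8765, 10764 and 12345 in TKO livers, against 8446 and 7790 in wild type livers (0.38 ± 0.18, adjusted p = 1). Ccne1, the cyclin that starts S phase, was on the lower side, with 2426, 2666 and 2992 in TKO livers, against 3635 and 3027 in wild type livers (-0.31 ± 0.14, adjusted p = 0.997). Of 29 G2 and M phase genes 0 were called, 3 had an unadjusted p under 0.05 and 28 lay above 0, with a median of 0.20. That median was 0.35 against wild type array 1 and 0.02 against wild type array 2, so it rested on array 1. Cdk1, the kinase that drives mitosis, gave 7989, 8361 and 8945 in TKO livers, against 6888 and 6651 in wild type livers (0.31 ± 0.10, adjusted p = 0.593).

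Among 17 E2F and DREAM transcription factor genes 0 were called, 3 had an unadjusted p under 0.05, and the median was 0.04. The repressors E2f8 (0.64 ± 0.21, adjusted p = 0.582) and E2f7 (0.54 ± 0.20, adjusted p = 0.788) were above both wild type arrays on every TKO array. E2f8 gave 6214, 7118 and 9571 in TKO livers, against 4022 and 5610 in wild type livers. The activators E2f1 (0.32 ± 0.17), E2f2 (-0.03 ± 0.21) and E2f3 (0.12 ± 0.17) were not called, and neither was E2f4 (-0.42 ± 0.32), the partner of p107 and p130. Of 17 cyclins, kinases and inhibitors Cdkn1a alone was called. The inhibitors Cdkn2c (0.63 ± 0.19, adjusted p = 0.467) and Cdkn2d (0.64 ± 0.20, adjusted p = 0.542) had no overlap between groups. Ccnd2, a D cyclin that activates the kinases upstream of RB1, gave 846, 1037 and 1281 in TKO livers, against 1941 and 1298 in wild type livers (-0.57 ± 0.22, adjusted p = 0.824). Of 20 DNA repair and checkpoint genes 0 were called and 17 lay above 0, with a median of 0.21, and 3 had an unadjusted p under 0.05, Brca1 first (0.64 ± 0.21, adjusted p = 0.582). The 16 Polycomb and DNA methylation genes had a median of 0.23, 0.22 and 0.21 against wild type arrays 1 and 2, and 0 calls, with 2 at an unadjusted p under 0.05.

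Of 15 p53 targets tested Cdkn1a was the 1 called. The list's median of 0.07 was -0.02 against wild type array 1 and 0.26 against wild type array 2. Against the wild type mean, the list's median on a single TKO array ran from 0.11 to 0.30. Mdm2, the ligase that degrades p53, gave 380, 760 and 842 in TKO livers, against 702 and 536 in wild type livers (0.07 ± 0.24, adjusted p = 1). Trp53inp1 (0.81 ± 0.34, adjusted p = 0.966) had no overlap between groups. Bbc3, the cell death gene for PUMA, gave 422, 486 and 1234 in TKO livers, against 444 and 174 in wild type livers (0.92 ± 0.46, adjusted p = 1), with the highest value on TKO array 5, and it was called with array group as a block (1.22 ± 0.26, adjusted p = 0.0318). Of 12 BCL2 family genes 0 were called and 1, Bnip3 (0.68 ± 0.28, adjusted p = 0.901), had an unadjusted p under 0.05. Bcl2l1, which protects maturing red cells from death, stood at -0.50 ± 0.25 (adjusted p = 1).

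Listed red cell genes other than Epor were not called. Of 15 genes of erythropoietin receptor signalling Epor was the 1 called, and the median was -0.02. Socs3, a feedback inhibitor of the receptor, gave 672, 893 and 1167 in TKO livers, against 559 and 542 in wild type livers (0.67 ± 0.23, adjusted p = 0.658). Of 16 red cell transcription factors 0 were called and 1 had an unadjusted p under 0.05, Gfi1b (0.60 ± 0.20, adjusted p = 0.593). Klf1, a master activator of globin and other red cell genes, gave 17631, 22309 and 29882 in TKO livers, against 18881 and 29297 in wild type livers, which overlapped (-0.08 ± 0.20, adjusted p = 1).

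Late red cell remodelling and enucleation genes lay mostly below 0, with 4 of 20 above 0, 0 called and 8 at an unadjusted p under 0.05 (4.57% over all genes). Their median of -0.14 was 0.04 against wild type array 1 and -0.34 against wild type array 2, and the wild type arrays differed from each other by a median of 0.52 over these genes. Xpo7 and Ube2o belong to this list, as do Tmcc2 (-0.63 ± 0.21, adjusted p = 0.582) and Ube2h (-0.74 ± 0.24, adjusted p = 0.582). Mxi1 (0.55 ± 0.19, adjusted p = 0.696) and Alox15 (0.85 ± 0.39) were also among the 8, but lay above 0. Of 17 heme synthesis genes 3 lay above 0, 0 were called and 3 had an unadjusted p under 0.05, with a median of -0.09. Cpox, a late enzyme of the pathway, gave 4572, 5374 and 8108 in TKO livers, against 8596 and 10245 in wild type livers (-0.73 ± 0.25, adjusted p = 0.658). Of 16 iron handling genes 0 were called, 4 had an unadjusted p under 0.05 and 6 lay above 0, with a median of -0.12, which was -0.01 and -0.25 against wild type arrays 1 and 2. The 19 membrane and skeleton genes had a median of -0.02 and 0 calls, with 1 unadjusted p under 0.05, that of the skeleton gene Add2 (-0.54 ± 0.20, adjusted p = 0.751). Of the 3 globin genes tested, the embryonic Hba-x, Hbb-bh1 and Hbb-y, 0 were called and 0 had an unadjusted p under 0.05. No adult globin of the list was tested. Hbb-y, the embryonic beta-like globin, gave 36639, 39438 and 53941 in TKO livers, against 32014 and 49156 in wild type livers.

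Hypoxia response genes had a median of 0.21, with 16 of 20 above 0, 0 called and 5 at an unadjusted p under 0.05. Kdm3a, a histone demethylase induced by low oxygen, gave 1376, 1739 and 2150 in TKO livers, against 851 and 1296 in wild type livers (0.71 ± 0.22, adjusted p = 0.542). Vegfa, the vessel growth factor and a classic hypoxia target, stood at -0.06 ± 0.35. Of 13 glycolysis genes 0 were called and 0 had an unadjusted p under 0.05, and their median of 0.14 was -0.11 and 0.29 against wild type arrays 1 and 2. The 23 mitochondrial respiration genes had a median of -0.08, -0.08 against either wild type array, with 6 above 0, 0 called and 0 at an unadjusted p under 0.05. Of 19 cholesterol synthesis genes 1, Dhcr7 (-0.69 ± 0.25, adjusted p = 0.77), had an unadjusted p under 0.05.

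Immediate early genes had a median of 0.17 with 16 of 18 above 0, 0 called and 4 at an unadjusted p under 0.05. Against wild type array 1 that median was -0.06 and against wild type array 2 it was 0.39. Ier3 gave 2256, 3008 and 5168 in TKO livers, against 1430 and 1491 in wild type livers (1.13 ± 0.32, adjusted p = 0.408), and Dusp1, a phosphatase of MAP kinases, 5473, 7083 and 7537, against 4158 and 5073 (0.56 ± 0.16, adjusted p = 0.426). The interferon response list had a median of 0.41, with 10 of 14 genes above 0, 0 called and 2 at an unadjusted p under 0.05. That median was 0.24 against wild type array 1 and 0.32 against wild type array 2. The members went apart: Irf7 (0.91 ± 0.29, adjusted p = 0.553), an inducer of interferon, gave 232, 252 and 291 in TKO livers, against 169 and 84.7 in wild type livers. Rsad2, an antiviral enzyme, gave 417, 559 and 1991 in TKO livers, against 1463 and 3557 in wild type livers (-1.65 ± 0.55, adjusted p = 0.605), with overlap.

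Lists for the other cells of the liver held 0 called genes, and those for hepatocytes, macrophages, neutrophils, stem cells and lymphoid cells 0 with an unadjusted p under 0.05. The medians were 0.01 over 22 hepatocyte and hepatoblast genes, 0.18 over 18 macrophage genes, -0.04 over 14 neutrophil and granule genes, 0.10 over 13 megakaryocyte and platelet genes and 0.13 over 19 stem and progenitor cell genes. The 15 endothelial genes had a median of 0.16 and the 18 stellate and mesenchymal genes 0.16, each with 1 gene at an unadjusted p under 0.05, Kdr and Lum. Tubb1, the platelet tubulin, gave 1193, 2786 and 6100 in TKO livers, against 5117 and 10199.6 in wild type livers (-1.38 ± 0.66, adjusted p = 1), and Ms4a2, a mast cell receptor subunit, 18.7, 37.8 and 94.4, against 142 and 134 (-1.14 ± 0.42, adjusted p = 0.798).

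The 7 mast cell and basophil genes had a median of 0.07 and the 6 lymphoid genes -0.10. Medians of the remaining lists were 0.14 over 8 core histone genes, 0.02 over 20 ribosome biogenesis genes, -0.03 over 18 genes of the unfolded protein and amino acid stress response, -0.01 over 14 heat shock and chaperone genes, 0.08 over the cholesterol synthesis genes and 0.04 over the globins.

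**Figure D5:**
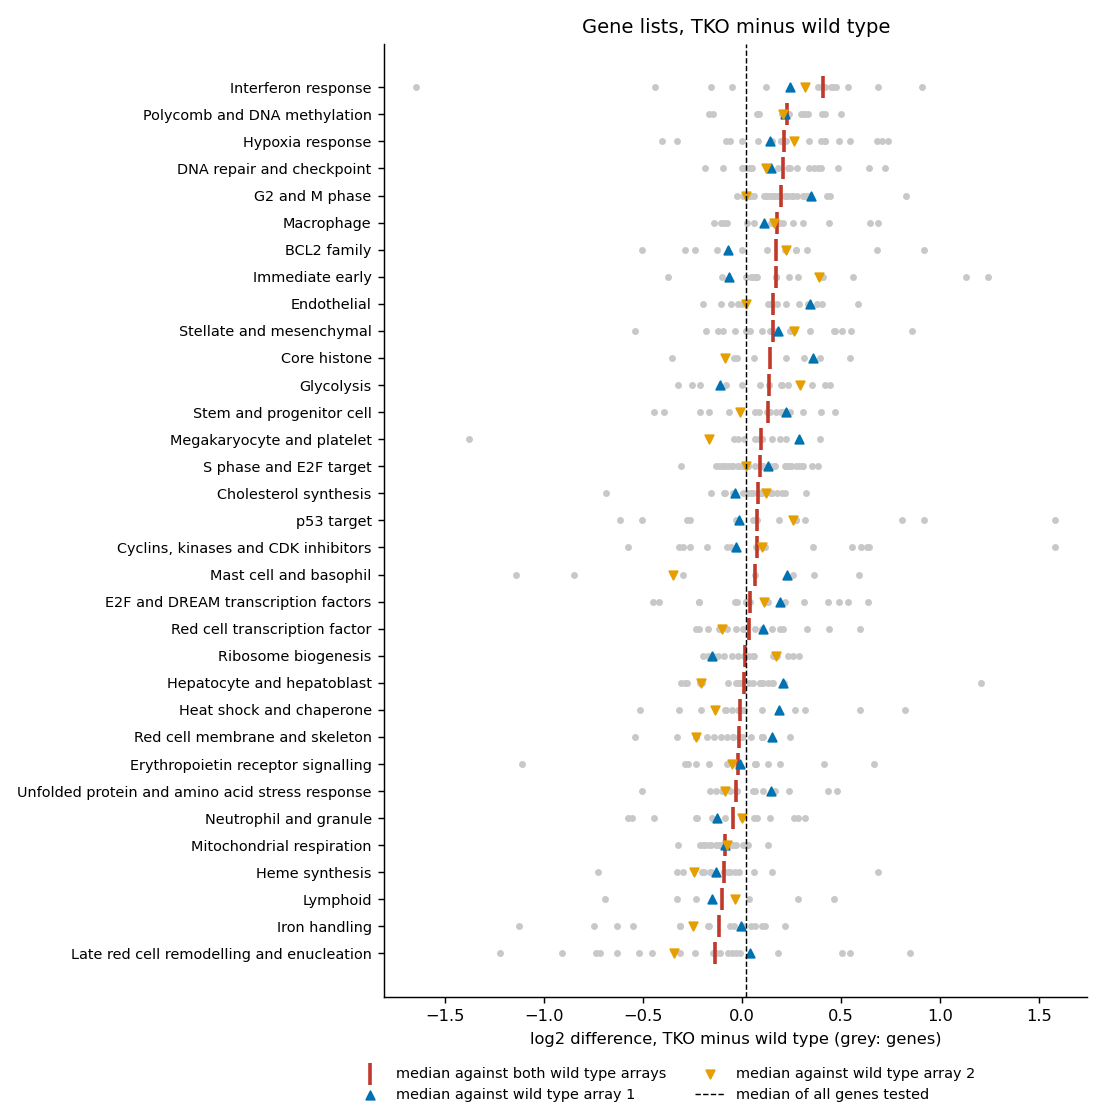
Log2 differences, TKO minus wild type (x axis), of the genes in 33 lists with at least 6 genes tested (grey points), with the list's median against both wild type arrays (red bar), array 1 (blue) and array 2 (orange), and the median of all genes (dashed). The blue and orange marks often fall on opposite sides of the dashed line, as for late red cell and immediate early genes.

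The choice of wild type array moved most lists. Of 34 lists, 7 had a median above that of all genes against both wild type arrays, 6 below against both, and 21 above against one and below against the other. In 25 lists the wild type arrays differed from each other by more than the list's median difference from TKO. The 7 lists above against both were E2F and DREAM factors, DNA repair, Polycomb, hypoxia, macrophage, stellate and interferon genes. The 6 below against both were erythropoietin receptor signalling, heme synthesis, iron handling, mitochondrial respiration, neutrophil and lymphoid genes.

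Single calls rested on the wild type arrays as well. Without wild type array 1 limma called 7 genes and kept 5 of the 10 (Rb1, Rbl1, Phf13, Tcp11l2 and Prr15l), and without wild type array 2 it called 4 and kept only Rb1 and Rbl1. The directions were the same: without array 1 and without array 2 they were 1.68 and 1.49 for Cdkn1a, 1.18 and 1.06 for Phf13, -2.17 and -1.33 for Tcp11l2 and -0.82 and -1.41 for Epor. Leaving out a single TKO array left 7 to 12 calls, and it was array 4 that gave 7. Without TKO array 2, 3 or 4 Epor was no longer called, and without 2, 4 or 6 Fhl1 was not.

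Arrays also fell into 3 groups by how probe sets of the same gene compared with each other. The grouping did not use the genotype labels and is not a recorded batch. TKO array 5 and wild type array 1 lay in array group 1, TKO arrays 4 and 6 and wild type array 2 in array group 2, and TKO arrays 1, 2 and 3 with no wild type array in array group 3. Array group 3 held only arrays of genotypes without p130: 3 TKO, 4 Rb1;p130 DKO, 1 p107;p130 DKO and 1 p130 KO array. Array group was thus tied to genotype, and what the block removes with it was not tested. With array group as a block, limma called 29 genes, 17 higher and 12 lower, and kept all 10. Fos (1.48 ± 0.25, adjusted p = 0.00209), Zfp367 (1.20 ± 0.23, adjusted p = 0.00756), Ier3 (1.32 ± 0.26, adjusted p = 0.0145), Pcgf5 (1.02 ± 0.14, adjusted p = 0.000104), Pdzk1ip1, Cdkn2c, Bbc3 and Klf5 were among those added as higher. Xpo7 (-0.89 ± 0.14, adjusted p = 0.00139), Ube2o (-1.08 ± 0.24, adjusted p = 0.0349), Plin2, Itsn1 and Serinc3 were among those added as lower. Within array group 1 alone 2 genes were called, Rb1 and Rbl1, and within array group 2 it was 31, with 7 of the 10 kept. Cdkn1a stood at 1.64 and 2.03 within array groups 1 and 2, Phf13 at 0.92 and 1.24, Tcp11l2 at -1.43 and -1.76 and Epor at -0.81 and -0.92. Array group 1 sets 1 TKO array against 1 wild type array, and array group 2 sets 2 against 1. Lone arrays were assumed to vary like the other genotypes' arrays, so neither count is a replicate check of both groups.

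Sex was read from Xist and Y-linked genes and was mixed in the TKO and wild type groups. Xist was above 500 on 4 of 6 TKO arrays and 1 of 2 wild type arrays, and a Y-linked gene on the others. With Xist signal as a covariate the 10 calls of TKO minus wild type were all kept. In the groups used for the steps, Xist was above 500 on 1 of 6 p107;p130 DKO arrays and 0 of 2 Rb1 KO arrays. A Y-linked gene was above 500 on 5 and 2 of them. Sex was thus uneven in the steps, and how much it contributed there is not given here.

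Genes beside the deleted ones were counted because targeted alleles carry flanking DNA of the strain they were made in. The 50 tested genes nearest to each of Rb1, Rbl1 and Rbl2 were taken, 25 on each side. In the main fit limma called 0 of them. Of each 50, in that order, 2, 6 and 2 had an unadjusted p under 0.05, beside 4.57% of all genes tested. Xpo7 is the fifth tested gene from Rb1. Other settings did call Xpo7: array group or replicate number as a block, quantile normalization and the mean of all probe sets. It was also called in TKO minus p107;p130 DKO, the step that adds Rb1 loss. The part of flanking DNA in its value was not tested. Samhd1, next to Rbl1, stood at 0.38 ± 0.11 (adjusted p = 0.47), and Siah1a, near Rbl2, at 0.53 ± 0.15 (adjusted p = 0.408).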

How the data were processed

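Total RNA of whole fetal liver was hybridised to 1-colour Affymetrix arrays. The authors deposited intensity values, linear MAS5 signals from GCOS 1.4 per the submitters' processing notes. No detection calls or scan dates were used. Of 45037 probe sets, 34945 had 1 gene symbol, 932 several (left out) and 9160 none. Signals, with trimmed means of 495.4 to 497.7 per array, were set to a common 2% trimmed mean (500), and log2(signal + 32) was taken. limma 3.58.1 in R 4.3.3 (lmFit, contrasts.fit, eBayes with trend, two-sided) fitted 8 genotype means over all 34 arrays, with Benjamini-Hochberg adjustment over 12723 genes. The fit was tested on simulated data.

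Named genes were called genes with a mean log2 of at least 8 and no overlap between groups, filled to 10 a direction with uncalled genes of largest moderated t, plus the targeted genes and up to 4 genes of each of 34 lists. Other genes shown were chosen after their values were seen. The members and lists were chosen with earlier results of these data known. Array groups were found by clustering within-gene probe set differences of 2996 genes into 3 groups. The alternatives varied pseudocount, filter, normalization, probe set choice, eBayes, array weights, blocks, covariates, a 2-fold threshold and single arrays.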

Additional observations from a re-analysis of the deposited data

Results flagged for a closer look

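In the 6 TKO arrays, 150 genes named or listed were checked for 1 array far from the other 5, and 8 had such an array by Dixon's 95% criterion. Chance flags about 1 in 20. Wild type, with 2 arrays, could not be checked. Array 5 was highest for Epor, at 3999.6 with the others between 2174 and 2673, and for Bbc3, at 1234 with the others between 422 and 557. It was lowest for Cps1, an enzyme of the urea cycle, at 64.5 with the others between 265 and 462. Array 4 was highest for the histone mRNA binding gene Slbp, at 20891 with the others between 17374 and 18609, and for Hbb-y, at 53941 with the others between 36639 and 40875. The same array was lowest for Ubtf, a factor of ribosomal RNA transcription, at 1782 with the others between 2293 and 2643. Array 2 was highest for the fibrinogen gene Fgg, at 8469 with the others between 6312 and 6982. Array 3 was lowest for the plasma protein gene Ahsg, at 3592 with the others between 4833 and 4945. Of these genes Epor alone was called, and without array 5 it was still called.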

How the results depend on the processing

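No called gene changed direction under any alternative run, whereas list medians did, as given above. For TKO minus wild type, 10 calls in the main setting, the count was 2 with only the arrays of these groups, 29 with array group as a block, 2 and 31 within array groups 1 and 2, and 4 to 12 when single arrays were left out, with 4 without wild type array 2. The other alternatives gave 8 to 12, and the cause of each change was not tested. For p107;p130 DKO minus wild type (1 call) the count was 2 with only those arrays and 5 within array group 2. For Rb1 KO minus wild type (1 call) it was 0 with only those arrays (307 at an unadjusted p under 0.05 by limma), 2 with array group as a block, 3 within array group 1 and 0 to 4 with single arrays left out, 0 without wild type array 2, 4 without Rb1 KO array 1 and 2 without Rb1 KO array 2. For TKO minus p107;p130 DKO (48 calls) it was 87 with the mean of probe sets, 144 with array weights, 110 with array group as a block, 3 and 0 within array groups 1 and 3 (538 at an unadjusted p under 0.05 in group 3), 16 with an added 2-fold threshold and 28 to 52 with single arrays left out. For TKO minus Rb1 KO (1 call) it was 1 to 3 with single arrays left out: 3 without either Rb1 KO array and 2 without TKO array 1 or 5.

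The replicate number as a block gave 12 calls for TKO minus wild type, keeping 8 of 10 without Epor and Fhl1, 2 for Rb1 KO minus wild type, 80 for TKO minus p107;p130 DKO and 2 for TKO minus Rb1 KO. The labels do not say that the numbers pair arrays, and same-numbered TKO and wild type arrays deviated from their group means with correlations of 0.14 and -0.00 across genes, which are not independent. Of the 3 targeted and 8 other called genes, 214 values under alternatives kept their side of the threshold and 49 did not, Fhl1, Epor and Tmem121b among them. Of the list medians 761 values moved by less than the SD of that list's median over the 6 TKO arrays, and 55 did not. That SD leaves out the spread between the wild type arrays. With 2 wild type arrays, no detection calls and no recorded batches, calls depend on those arrays, and uncalled genes are not shown to be equal.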

Other observations

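Genes that limma called with array group as a block and that the text has not described were taken after their values were seen. Stil, needed for centriole duplication in dividing cells, rose by 0.83 ± 0.15 (adjusted p = 0.00628), against 0.62 ± 0.21 without the block. Btg1, an antiproliferative gene, rose by 0.66 ± 0.15 (adjusted p = 0.0471), against 0.55 ± 0.17 without it. The histone gene H3c11 rose by 1.59 ± 0.30 (adjusted p = 0.00756) and averaged 227 in TKO livers and 72.7 in wild type livers. It has near-identical copies, so which of them the probe set read is uncertain. Mllt3, a cofactor of transcription elongation, fell by 0.73 ± 0.16 (adjusted p = 0.0385) and averaged 2033 in TKO livers and 3149 in wild type livers. Txnrd2, the mitochondrial thioredoxin reductase, fell by 0.67 ± 0.15 (adjusted p = 0.0418). In the fit without the block none of these 5 genes was called.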
